A study of Mus musculus with 12 samples.

Results

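The 40 genes described here encode the machinery that brings new secretory proteins into the endoplasmic reticulum (ER) and carries them between the ER and the Golgi apparatus. They were taken as listed symbols, mapped from the Ensembl identifiers of the count files, and not by their values. All 40 were found among the 49585 genes of each file and all 40 passed the filter on low counts, which left 14329 genes for testing. By role, 5 belong to the signal recognition particle and its receptor, 5 to the Sec61 channel with Sec62 and Sec63, 4 to the translocon-associated protein complex, 5 to signal peptidase, 11 to the COPII coat, 6 to the COPI coat, and 4 are cargo or retrieval receptors.

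The values come from RNA sequencing of whole pancreas of mice aged 2 to 4 months, in 4 groups of 3 animals. Mice of a congenic Atf3-/- line received cerulein (libraries C2, L4 and C3), and so did C57Bl6 controls, called WT here (O1, O3 and N3). The saline groups were the Atf3-/- line (S1, K4 and Q1) and WT (W1, K5 and R3). Each animal was injected 4 times with 50 ug/kg of cerulein or with saline, and tissue was taken at 4 h. Cerulein is an analogue of cholecystokinin, the gut hormone that drives enzyme secretion by the acinar cells of the pancreas, and at high doses it causes pancreatitis in mice. The labels do not say which part of Atf3 is deleted. Atf3 had 1375 and 1636 CPM in C2 and L4 and 20.7 CPM in C3, against 7.44 to 23.1 CPM in the saline libraries of the Atf3-/- line, and it had 775, 599 and 394 CPM in WT cerulein and 3.23, 1.13 and 5.28 CPM in WT saline. Atf3 was thus not lower under the Atf3-/- label: labelled KO against WT gave log2 changes of 0.78 ± 1.02 in cerulein (± SE, edgeR adjusted p 0.789; 1.35 ± 0.55 without C3, adjusted p 0.974) and 2.18 ± 1.09 in saline (adjusted p 1). With the deleted part not stated, the gene counts neither bear out the label nor check the genotype, so that line is called "labelled KO" here. CPM is counts per 1e6 counts of a library, scaled between libraries by TMM.

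Library C3, labelled as cerulein, stands apart. On the first principal component of all tested genes it lay at -55.9, against 61.9 to 86.1 in the other 5 cerulein libraries, and the 6 saline libraries lay between -58.8 and -46.4. Of the 40 members, 30 had a C3 value within the range of those 6 saline libraries, and the share over all tested genes was not counted. C3 values are given apart from those of C2 and L4, and counts of calls in comparisons that use C3 are given with and without it. Library totals ran from 18292997 to 32158629 counts. The labelled tissue was checked against its main cell type, and all 10 acinar marker genes were detected in every library.

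As background, a ribosome that begins a secretory protein is met by the signal recognition particle, which binds the emerging signal peptide and docks at its receptor on the ER. The chain then passes through the Sec61 channel, signal peptidase cuts off the signal peptide, and the translocon-associated complex lies beside the channel. COPII coats form the vesicles that leave the ER, and the Sec24 proteins of that coat bind the cargo. COPI coats form the vesicles that return from the Golgi, and KDEL receptors send escaped ER-resident proteins back in them. Acinar cells make and export digestive enzymes at a very high rate and are rich in all of this machinery.

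Many genes of this machinery are known targets of the unfolded protein response, which acts through short promoter elements. Among these elements is the UPRE, spelled TGACGTGG here, which holds the shorter core ACGTG. Promoters of 300 bases (250 before the start and 50 from it, RefSeq, GRCm38.p6) were given for 32 of the 40 members, with 34 promoters in all. On either strand, the UPRE letters were found in 5 of the 34 (14.7%), against 0.676% of 32851 promoters and 1.01% of the 13532 promoters of tested genes. The core was found in 23 of the 34 (67.6%), against 19.6% of all promoters and 24.9% of those of tested genes. The longer ERSE (CCAAT, any 9 bases, CCACG) and ERSE-II (ATTGG, any 1 base, CCACG) were found in 0 of the 34, against 0.119% and 0.0365% of all promoters. The 5 promoters with the UPRE letters are shown because their genes took different directions under cerulein, described with each role below. Capitals mark the UPRE and core letters, and each line reads 5′ to 3′ on the strand of its gene.

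Kdelr3, chr15:79516158-79516457, plus strand, a KDEL receptor: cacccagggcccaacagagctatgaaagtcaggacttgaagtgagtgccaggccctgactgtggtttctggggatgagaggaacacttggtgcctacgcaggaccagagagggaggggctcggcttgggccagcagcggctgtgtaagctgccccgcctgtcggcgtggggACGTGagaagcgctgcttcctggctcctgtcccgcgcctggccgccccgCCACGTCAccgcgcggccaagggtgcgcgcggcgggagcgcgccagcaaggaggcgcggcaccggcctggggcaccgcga
Sec24d, chr3:123267246-123267545, plus strand, a cargo-binding COPII subunit: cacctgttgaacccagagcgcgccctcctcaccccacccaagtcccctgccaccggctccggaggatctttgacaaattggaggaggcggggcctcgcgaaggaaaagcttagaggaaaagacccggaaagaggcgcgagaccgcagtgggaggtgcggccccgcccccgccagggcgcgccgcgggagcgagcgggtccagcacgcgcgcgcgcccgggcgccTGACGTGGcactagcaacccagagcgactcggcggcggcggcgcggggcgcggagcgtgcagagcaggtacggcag
Sec23a, chr12:59011968-59012267, minus strand, an inner COPII subunit: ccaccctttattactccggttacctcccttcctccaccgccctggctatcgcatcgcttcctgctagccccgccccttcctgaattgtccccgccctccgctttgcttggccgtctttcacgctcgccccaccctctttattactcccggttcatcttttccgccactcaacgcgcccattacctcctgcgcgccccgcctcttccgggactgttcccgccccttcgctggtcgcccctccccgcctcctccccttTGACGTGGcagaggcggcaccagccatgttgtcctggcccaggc
Copb1, chr7:114254631-114254930, minus strand, a COPI subunit: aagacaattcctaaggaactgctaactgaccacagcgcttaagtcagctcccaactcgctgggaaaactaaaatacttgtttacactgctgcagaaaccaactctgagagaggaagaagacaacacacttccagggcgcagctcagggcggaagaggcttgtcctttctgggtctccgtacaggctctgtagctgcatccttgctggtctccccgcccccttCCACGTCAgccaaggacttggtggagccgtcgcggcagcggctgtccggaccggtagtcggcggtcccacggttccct
Copb2, chr9:98563481-98563780, plus strand, a COPI subunit: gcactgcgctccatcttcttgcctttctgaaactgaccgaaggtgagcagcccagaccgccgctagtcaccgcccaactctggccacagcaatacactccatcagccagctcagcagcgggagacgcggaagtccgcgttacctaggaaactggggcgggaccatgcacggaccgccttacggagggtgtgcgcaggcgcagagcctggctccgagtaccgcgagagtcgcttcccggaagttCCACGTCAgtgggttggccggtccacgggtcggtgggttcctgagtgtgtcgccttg

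The UPRE letters began 30 bases before the start in Kdelr3, 28 in Copb1, 26 in Sec24d and 7 in Copb2, and 6 bases after the start in Sec23a. In Kdelr3, Copb1 and Copb2 they lie on the strand opposite to the gene. Kdelr3 holds a second core, which begins 79 bases before the start. A match is a description of the letters only. The 8 members with no promoter in the table are Srp68, Sec61a1, Ssr2, Spcs3, Sec11c, Arcn1, Lman1 and Kdelr2.

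In WT, cerulein moved single members of the machinery in opposite directions. Between WT cerulein and WT saline 4 of the 40 members rose and 7 fell by edgeR's quasi-likelihood test at an adjusted p under 0.05 (Benjamini-Hochberg over all genes tested), and 29 did not pass. These are 10% and 17.5% of the members, against a background of 17.9% of all tested genes higher and 12.8% lower, so the share that rose was below the background and the share that fell a little above it. Their median log2 fold change was -0.18, against 0.05 over all tested genes. The risers were the cargo-binding COPII subunits Sec24a and Sec24b, the KDEL receptor Kdelr3 and the signal peptidase subunit Sec11a. The genes that fell were Srp14, Sec62, Ssr1, Spcs2, Sec16a, Sec23a and Lman1. Groups that do not overlap were seen for 6 members on the higher side and 14 on the lower, against 27.5% and 24.9% of tested genes. With C3 out of the fit, which lowers the shared estimate of the spread (a biological coefficient of variation of 0.304, against 0.357 with it), 6 members rose and 7 fell in WT, the additions being Sec61a1 and Sec24d, against a background of 21.3% higher and 16.6% lower. The count that rose was 2 without K5, R3, O1 or O3, and the count that fell was 0 without O3, 2 without W1, R3 or O1, 3 without K5 or N3 and 4 without S1 or Q1. Over all tested genes, 1371, 1321, 1576 and 1270 rose without K5, R3, O1 and O3, against 2568 with all libraries. The genes that fell numbered 571 without O3, 958, 812 and 831 without W1, R3 and O1, and 834 and 1315 without K5 and N3. Without S1 and Q1, 1567 and 1559 genes fell, against 1831 with all libraries. These leave-out fits tested 14675 to 14876 genes. In whole tissue, fewer cells of a type and less RNA per cell cannot be told apart.

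**Figure D1:**
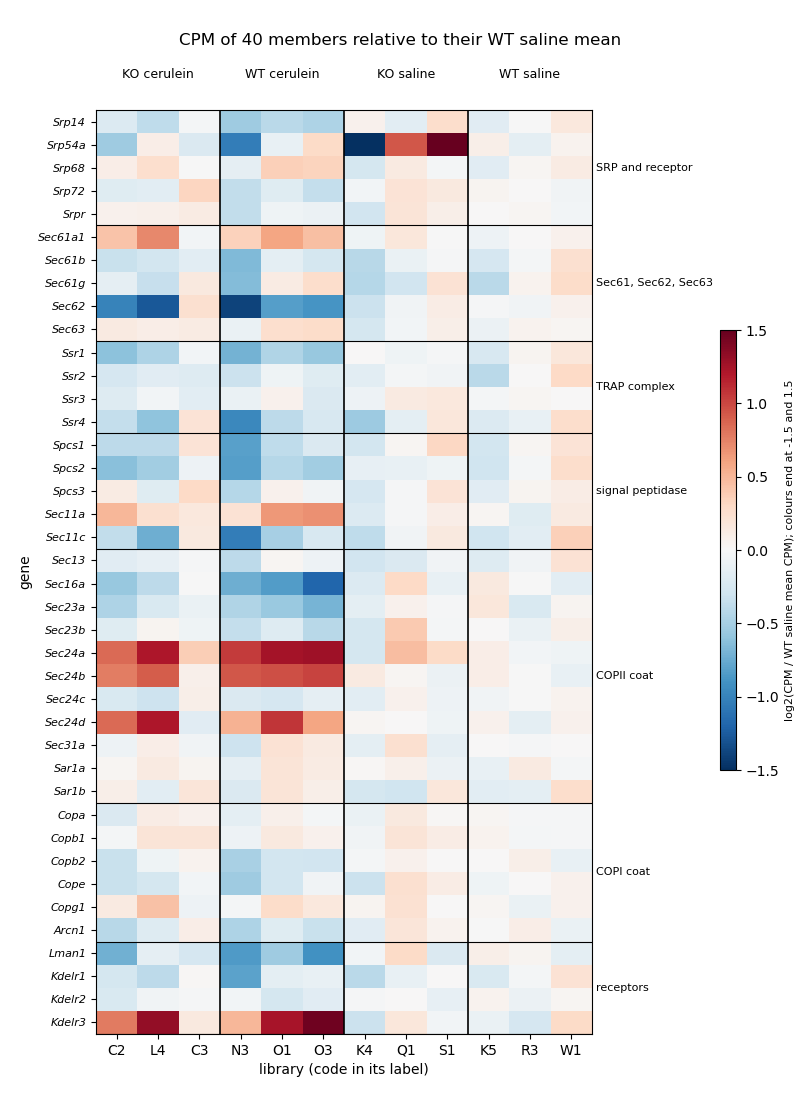
CPM of each of the 40 members (rows, by role) in each of the 12 libraries (columns), as log2 of the ratio to the gene's WT saline mean; KO stands for the label Atf3-/-. Sec24a, Sec24b, Sec24d and Kdelr3 are high and Sec62 low in the cerulein libraries C2, L4, N3, O1 and O3, and column C3 is close to the saline columns; the strong colours of Srp54a rest on the lowest mean level of the 40.

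The signal recognition particle and its receptor had 1 of 5 members past the threshold in WT, on the lower side (20%, against 12.8% of all tested genes). Srp14, a subunit of the domain that slows the ribosome while the particle is bound, had 13.1 and 11.7 CPM in C2 and L4, 14.8 CPM in C3 and 11.5, 10.99 and 10.5 CPM in WT cerulein, against 18.2, 15.9 and 13.6 CPM in labelled KO saline and 16.9, 13.5 and 15.1 CPM in WT saline. The WT groups did not overlap, and Srp14 fell by 0.46 on the log2 scale in WT (SE 0.16, adjusted p 0.0449). Srpr, the alpha subunit of the receptor, had the highest level per length of all 40 members, a mean of 66.0 CPM per kb over the 12 libraries, with 234 and 236 CPM in C2 and L4 with 244 CPM in C3, and 215, 211 and 173 CPM in the WT cerulein libraries, compared with 239, 184 and 256 CPM in labelled KO saline and 218, 224 and 229 CPM in WT saline. Its change in WT was -0.17 ± 0.17 (log2, ± SE, adjusted p 0.497), although the WT groups did not overlap. Srp68, which binds the particle's RNA together with Srp72, had 81.8 and 90.6 CPM in C2 and L4, 76.1 CPM in C3 and 98.02, 96.2 and 69.5 CPM in WT cerulein, against 74.8, 63.7 and 83.4 CPM in labelled KO saline and 82.9, 67.9 and 77.9 CPM in WT saline. These values overlap between treatments under both genotype labels. Srp72 averaged 49.03 ± 3.67 CPM in WT cerulein and 60.4 ± 2.09 CPM in WT saline (SD, n = 3 each), a change of -0.30 ± 0.17 with adjusted p 0.192. Srp54a encodes the subunit that binds the signal peptide. It averaged only 0.383 ± 0.161 CPM in WT cerulein and 0.436 ± 0.037 CPM in WT saline, and reads of its near-identical copies, of which Srp54c is in the count files, may have been counted elsewhere or nowhere, so its values are uncertain.

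The Sec61 channel and its partners held both directions. Sec62 (ENSMUSG00000027706, GRCm38 chr3:30792875-30821263, plus strand), a membrane partner of the channel in post-translational import that is also known as a receptor for autophagy of the ER, had 74.6 and 61.7 CPM in C2 and L4 with 176 CPM in C3, and 84.1, 80.7 and 56.9 CPM in the WT cerulein libraries, compared with 161, 119.6 and 144 CPM in labelled KO saline and 156, 148 and 144 CPM in WT saline. The C2, L4 and WT cerulein values all lie below every saline value, and the C3 value lies above every one. Sec62 fell by 1.01 on the log2 scale in WT (SE 0.34, adjusted p 0.0456; 0.00143 without C3). In the labelled KO its change was -1.05 ± 0.21 without C3 (adjusted p 0.00367). Sec61a1, the subunit that forms the pore, had 179.7 and 219.6 CPM in C2 and L4, 129 CPM in C3 and 201, 181 and 169 CPM in WT cerulein, against 133, 127 and 150.4 CPM in labelled KO saline and 139.8, 126 and 134 CPM in WT saline. Its values lie higher in C2, L4 and WT cerulein than in the saline groups. The WT change of 0.47 ± 0.20 had an adjusted p of 0.0979 over 12 libraries and 0.0235 without C3, when the labelled KO change was 0.55 ± 0.16 (adjusted p 0.0229). Sec61b, a small subunit, had 38.5 and 40.1 CPM in C2 and L4 with 43.4 CPM in C3, and 43.7, 40.6 and 30.8 CPM in the WT cerulein libraries, compared with 47.9, 36.3 and 45.4 CPM in labelled KO saline and 57.3, 40.7 and 47.6 CPM in WT saline. Its treatments overlap under both labels. Sec61g, the other small subunit, averaged 25.5 ± 7.82 CPM in WT cerulein and 26.2 ± 6.07 CPM in WT saline (SD, n = 3 each), and Sec63, which recruits the chaperone BiP to the channel, averaged 73.7 ± 10.02 CPM in WT cerulein and 66.3 ± 3.27 CPM in WT saline. Neither passed in WT (adjusted p 0.933 for Sec61g and 0.495 for Sec63).

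Of the translocon-associated protein complex, 1 of 4 subunits passed in WT, on the lower side (25%, against 12.8% of all tested genes). Ssr1, the alpha subunit, averaged 41.6 ± 3.85 CPM in WT cerulein and 61.9 ± 8.86 CPM in WT saline (SD, n = 3 each). Its WT values do not overlap between treatments, and it fell by 0.57 on the log2 scale in WT (SE 0.18, adjusted p 0.0344). Without C3 it also fell in the labelled KO, with a change of -0.51 ± 0.16 (adjusted p 0.0318). Ssr4, the delta subunit, had 128 and 107 CPM in C2 and L4, 188 CPM in C3 and 124, 138 and 83.02 CPM in WT cerulein, against 182, 111 and 147 CPM in labelled KO saline and 196, 141 and 151 CPM in WT saline. N3 had the lowest of these values, and the WT change of -0.50 ± 0.28 did not pass (adjusted p 0.195). Ssr3, the gamma subunit, had 94.1 and 105 CPM in C2 and L4 with 96.5 CPM in C3, and 113, 93.1 and 101 CPM in the WT cerulein libraries, compared with 120.5, 103 and 119 CPM in labelled KO saline and 108, 106 and 110.0 CPM in WT saline. Ssr2, the beta subunit, averaged 29.1 ± 2.64 CPM in WT cerulein and 33.2 ± 7.91 CPM in WT saline, and its change of -0.19 ± 0.17 was about as large as its standard error.

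Signal peptidase is a complex in which either Sec11a or Sec11c is the cutting subunit, and Spcs1, Spcs2 and Spcs3 are its partners. Sec11a had 18.8 and 15.6 CPM in C2 and L4, 14.8 CPM in C3 and 20.9, 21.3 and 15.4 CPM in WT cerulein, against 14.2, 11.5 and 13.1 CPM in labelled KO saline and 14.6, 13.5 and 11.7 CPM in WT saline, and its cerulein libraries lie above the saline libraries of their genotype label, C3 included. In WT it rose by 0.53 ± 0.17 (log2, ± SE, adjusted p 0.0371). Sec11c had 87.8 and 68.4 CPM in C2 and L4 with 126 CPM in C3, and 80.04, 96.04 and 55.5 CPM in the WT cerulein libraries, compared with 125, 87.1 and 109.7 CPM in labelled KO saline and 146, 92.4 and 102 CPM in WT saline. The treatments overlap for Sec11c, whose WT change of -0.55 ± 0.29 did not pass (adjusted p 0.164). Sec11a shares exons with Nmb on the same strand, and Nmb averaged 0.505 CPM in WT cerulein and 0.878 CPM in WT saline. Spcs2 averaged 29.04 ± 4.04 CPM in WT cerulein and 43.6 ± 8.44 CPM in WT saline (SD, n = 3 each), and it fell by 0.59 in WT (log2, SE 0.19, adjusted p 0.0416). Spcs1 had 38.4 and 38.4 CPM in C2 and L4, 58.1 CPM in C3 and 38.6, 43.5 and 28.8 CPM in WT cerulein, against 62.7, 41.9 and 51.4 CPM in labelled KO saline and 58.3, 41.9 and 51.3 CPM in WT saline. Spcs3, which the cutting activity needs, had 69.2 and 55.7 CPM in C2 and L4 with 77.8 CPM in C3, and 66.3, 61.2 and 46.96 CPM in the WT cerulein libraries, compared with 73.2, 53.1 and 62.8 CPM in labelled KO saline and 68.5, 56.3 and 65.3 CPM in WT saline. Neither passed in WT, with adjusted p 0.172 for Spcs1 and 0.671 for Spcs3.

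**Figure D2:**
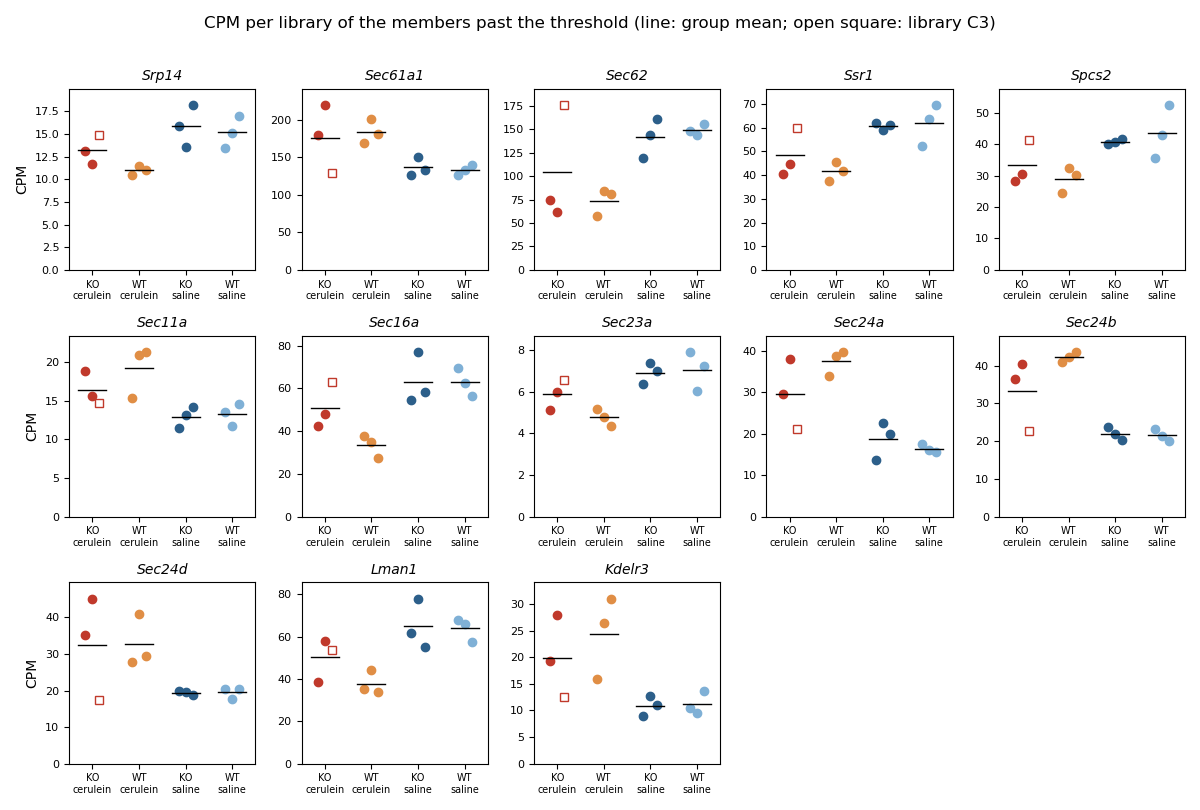
CPM in each library (points) and group mean (lines) for the 13 members past the threshold in WT with or without C3 or in the labelled KO without C3; the open square is C3 and KO stands for the label Atf3-/-. For Sec24a, Sec24b, Sec24d, Kdelr3 and Sec61a1 the points of C2, L4 and the WT cerulein group lie above all saline points of the same label; for Sec62, Ssr1 and Spcs2 they lie below them.

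In the COPII coat 2 of 11 members rose and 2 fell in WT, and both risers were Sec24 paralogs. These counts are 18.2% each, near the 17.9% of all tested genes higher and 12.8% lower. Sec24a (ENSMUSG00000036391, GRCm38 chr11:51692264-51763634, minus strand) had 29.6 and 38.01 CPM in C2 and L4, 21.1 CPM in C3 and 38.8, 39.7 and 33.9 CPM in WT cerulein, against 20.1, 13.7 and 22.5 CPM in labelled KO saline and 15.7, 17.6 and 15.99 CPM in WT saline. It rose by 1.19 ± 0.23 in WT (adjusted p 0.00918) and, without C3, by 0.85 ± 0.20 in the labelled KO (adjusted p 0.00915). Sec24b (ENSMUSG00000001052, chr3:129982759-130061553, minus strand), its close relative, had 36.5 and 40.4 CPM in C2 and L4 with 22.7 CPM in C3, and 42.2, 43.6 and 40.9 CPM in the WT cerulein libraries, compared with 20.2, 23.7 and 21.98 CPM in labelled KO saline and 19.98, 23.1 and 21.5 CPM in WT saline. All WT cerulein values lie above all saline values, and so do C2 and L4. The rise of Sec24b was 0.97 ± 0.20 in WT (adjusted p 0.00921) and, without C3, 0.81 ± 0.13 in the labelled KO (adjusted p 0.000854). Sec24d, of the other Sec24 pair with Sec24c, had 35.1 and 45.04 CPM in C2 and L4, 17.4 CPM in C3 and 40.9, 29.4 and 27.9 CPM in WT cerulein, against 18.7, 19.95 and 19.6 CPM in labelled KO saline and 20.4, 20.4 and 17.6 CPM in WT saline. Its groups do not overlap in WT, but its change of 0.75 ± 0.29 had an adjusted p of 0.0685 with C3 in the fit and 0.00492 without it. In the labelled KO without C3 Sec24d rose by 1.05 ± 0.18 (adjusted p 0.00166). Sec24c had 43.6 and 41.2 CPM in C2 and L4 with 54.4 CPM in C3, and 43.02, 46.5 and 44.1 CPM in the WT cerulein libraries, compared with 48.6, 45.9 and 53.4 CPM in labelled KO saline and 53.1, 49.3 and 50.96 CPM in WT saline. Unlike its paralogs it did not rise: its WT values lie lower under cerulein without overlap, and its change of -0.20 ± 0.15 did not pass (adjusted p 0.327).

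Other COPII genes that passed fell. Sec16a, the scaffold that marks ER exit sites, had 42.4 and 48.04 CPM in C2 and L4, 62.8 CPM in C3 and 35.2, 27.5 and 37.8 CPM in WT cerulein, against 58.2, 54.4 and 77.03 CPM in labelled KO saline and 56.3, 69.5 and 62.8 CPM in WT saline. Its fall in WT was 0.91 on the log2 scale (SE 0.21, adjusted p 0.0116), and in the labelled KO without C3 the change was -0.48 ± 0.20 (adjusted p 0.0898). Sec23a, the inner-coat subunit that activates the Sar1 GTPase, averaged 4.77 ± 0.405 CPM in WT cerulein and 7.06 ± 0.956 CPM in WT saline (SD, n = 3 each), and it fell by 0.56 in WT (SE 0.17, adjusted p 0.0303). Its paralog Sec23b averaged 26.7 ± 2.11 CPM in WT cerulein and 33.4 ± 2.28 CPM in WT saline, with a change of -0.32 ± 0.17 and adjusted p 0.179. Sar1a, the GTPase that starts coat assembly, had 61.9 and 66.5 CPM in C2 and L4 with 62.7 CPM in C3, and 69.6, 66.03 and 55.6 CPM in the WT cerulein libraries, compared with 57.1, 61.5 and 64.05 CPM in labelled KO saline and 59.6, 56.3 and 66.5 CPM in WT saline. Sec31a, which forms the outer cage with Sec13, had 81.96 and 92.5 CPM in C2 and L4, 83.8 CPM in C3 and 101, 95.3 and 69.8 CPM in WT cerulein, against 78.7, 78.3 and 102 CPM in labelled KO saline and 87.2, 87.2 and 85.7 CPM in WT saline. The log2 changes of Sar1a, Sar1b, Sec31a and Sec13 in WT lay between -0.13 and 0.07, and none passed.

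None of the 6 COPI members passed in WT or in the labelled KO, with or without C3, though Copb2 fell in WT under a stricter filter on low counts and in a fit of the WT libraries alone (edgeR adjusted p 0.0287 and 0.0435), and the median log2 fold change of the 6 in WT was -0.15. Cope, the epsilon subunit, had 47.3 and 49.5 CPM in C2 and L4 with 57.8 CPM in C3, and 49.4, 57.4 and 41.3 CPM in the WT cerulein libraries, compared with 64.6, 47.8 and 70.2 CPM in labelled KO saline and 62.3, 56.9 and 59.7 CPM in WT saline. Copa, the alpha subunit, had 105 and 131 CPM in C2 and L4, 128 CPM in C3 and 128, 119 and 109.6 CPM in WT cerulein, against 123, 114 and 134 CPM in labelled KO saline and 120.4, 124 and 120.0 CPM in WT saline. The treatments overlap for both genes. Copg1 (gamma) changed by 0.14 ± 0.16 and Copb1 (beta) by 0.05 ± 0.14 in WT. Arcn1, the delta subunit, averaged 128 ± 12.6 CPM in WT cerulein and 160.0 ± 11.1 CPM in WT saline (SD, n = 3 each), with adjusted p 0.2. Copb2, the beta prime subunit, averaged 50.7 ± 3.98 CPM in WT cerulein and 64.4 ± 4.36 CPM in WT saline, with adjusted p 0.102 and 0.0547 without C3. For Arcn1 and Copb2 the WT groups did not overlap, cerulein being lower. These p-values miss the threshold and do not show that COPI was the same under both treatments. The count of 0 rests on 6 genes, against 17.9% of all tested genes higher and 12.8% lower in WT.

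Of the 4 receptors, 1 rose and 1 fell in WT (25% each, against 17.9% of all tested genes higher and 12.8% lower). Kdelr3 (ENSMUSG00000010830, GRCm38 chr15:79516411-79527739, plus strand) had 19.3 and 27.9 CPM in C2 and L4 with 12.4 CPM in C3, and 26.4, 30.9 and 15.8 CPM in the WT cerulein libraries, compared with 10.9, 8.95 and 12.6 CPM in labelled KO saline and 13.7, 10.5 and 9.45 CPM in WT saline. The 3 WT cerulein values are all above the highest WT saline value, N3 least, and C2 and L4 are above all values of labelled KO saline. Its rise was 1.12 ± 0.32 in WT (adjusted p 0.0233) and, without C3, 1.13 ± 0.29 in the labelled KO (adjusted p 0.0136). Kdelr3 shares exons with Ddx17 on the opposite strand. Ddx17 averaged 119.7 CPM in WT cerulein and 89.4 CPM in WT saline, a log2 change of 0.42 (adjusted p 0.0936); whether the counting used strand is not given in the sources used here. Kdelr1 had 55.03 and 50.1 CPM in C2 and L4, 66.4 CPM in C3 and 59.3, 60.8 and 37.7 CPM in WT cerulein, against 66.3, 49.7 and 60.8 CPM in labelled KO saline and 76.4, 56.4 and 64.6 CPM in WT saline. Kdelr2 had 20.4 and 23.02 CPM in C2 and L4 with 23.6 CPM in C3, and 20.00, 21.3 and 23.4 CPM in the WT cerulein libraries, compared with 22.1, 23.6 and 23.95 CPM in labelled KO saline and 24.5, 24.8 and 22.6 CPM in WT saline. Neither differed past the threshold in WT, with adjusted p 0.287 for Kdelr1 and 0.379 for Kdelr2. Lman1, the lectin that carries glycoproteins such as clotting factors out of the ER, had 38.7 and 58.1 CPM in C2 and L4, 53.7 CPM in C3 and 44.1, 34.03 and 35.4 CPM in WT cerulein, against 54.96, 61.9 and 77.8 CPM in labelled KO saline and 57.6, 68.1 and 66.01 CPM in WT saline. It fell by 0.76 in WT (log2, SE 0.20, adjusted p 0.0186), and its change in the labelled KO without C3 was -0.42 ± 0.22 (adjusted p 0.171).

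Shares of paralogs within a family were set side by side for 5 families. In the Sec24 family Sec24c held 31.2% ± 2.28 of the Sec24 family's CPM per kb in WT cerulein and 49.8% ± 2.17 in WT saline (SD, n = 3 each). Its share was thus lower in WT cerulein while its level did not pass. Sec24b held 30.9% ± 1.37 in WT cerulein against 21.9% ± 1.57 in WT saline, and Sec24a 15.4% ± 0.688 against 9.41% ± 0.518. In C3 the share of Sec24c was 50.5%, against 27.3% and 32.5% in L4 and C2. Kdelr3 held 29.7% ± 3.94 of the KDEL receptor family in WT cerulein and 14.1% ± 1.40 in WT saline. Sec11a held 27.2% ± 2.27 of the Sec11 pair in WT cerulein and 15.04% ± 2.50 in WT saline. The shares of Sec24a, Sec24b, Sec24c, Sec24d, Kdelr1, Kdelr3, Sec11a and Sec11c did not overlap between the WT groups. Sar1a held 70.3% ± 0.65 of the Sar1 pair in WT cerulein and 69.8% ± 4.26 in WT saline, and Sec23a 18.9% ± 1.47 of the Sec23 pair in WT cerulein and 21.5% ± 1.76 in WT saline, both with overlapping groups.

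A ratio of 2 genes within a library needs no scaling between libraries, so 7 pairs of paralogs were compared by an exact permutation test over all 12 libraries (labels permuted within genotype label, 400 arrangements, two-sided, adjusted over the 7 pairs). The log2 ratio of Sec24c to Sec24b was lower with cerulein by 0.91 (difference -0.91, exact p 0.01, adjusted p 0.035), and the difference in WT alone was -1.17. The log2 ratio of Kdelr3 to Kdelr1 was higher by 1.14 (exact p 0.01, adjusted p 0.035). The log2 ratio of Sec11c to Sec11a differed by -0.82 (exact p 0.015, adjusted p 0.035). Without C3, with 200 arrangements, the differences were -1.10, 1.34 and -0.97 in the same order, each with an exact p of 0.005 (adjusted p 0.0117). That exact p is the lowest that 200 arrangements can give. Without L4 the differences were -0.79, 0.95 and -0.73, with exact adjusted p 0.0583, 0.0525 and 0.0525. The other pairs did not pass over 12 libraries: Sec23b to Sec23a differed by 0.18 (adjusted exact p 0.166, but 0.04375 without Q1), Sec24d to Sec24a by -0.24 (adjusted exact p 0.287), Sar1b to Sar1a by 0.03 (adjusted exact p 0.79) and Kdelr2 to Kdelr1 by 0.09 (adjusted exact p 0.776). Both Sec24 pairs cross the close relatives named above, Sec24a with Sec24b and Sec24c with Sec24d. The Sec24c to Sec24b ratio thus sets a gene that did not pass in WT against a gene that rose. Several of these genes had already been seen to move in the gene-by-gene results. The ratios therefore describe the same libraries a second way, and their p-values are not separate support.

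**Figure D3:**
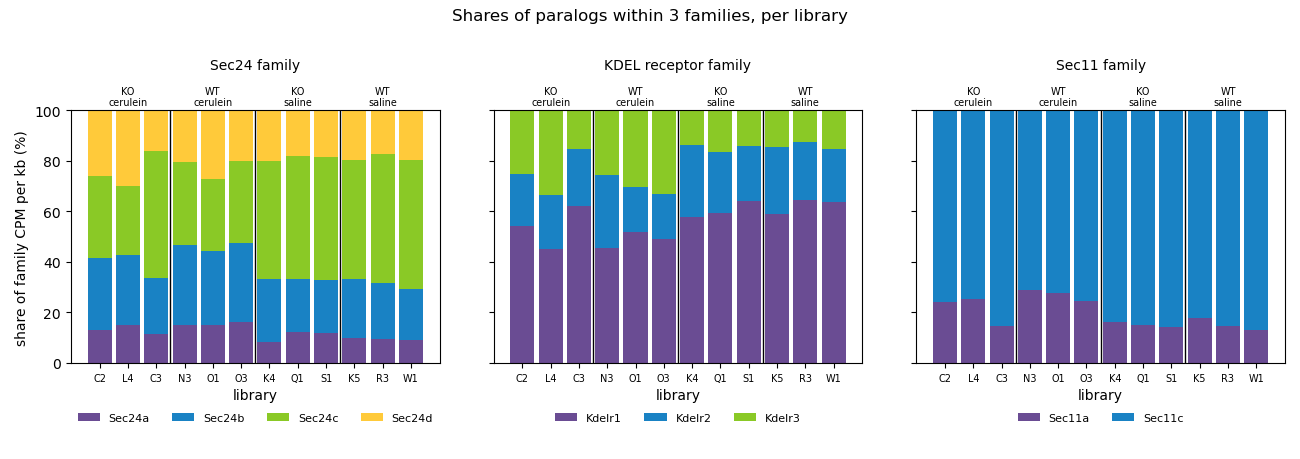
Share of each paralog in the CPM per kb of its family (%), 1 bar per library, grouped by the 4 groups; KO stands for the label Atf3-/-. Sec24c takes 49.8% on average in WT saline and 31.2% in WT cerulein, and the C3 bars are close to the saline bars.

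In the labelled KO, cerulein moved 7 members in the directions seen in WT once C3 was set apart. Over all 12 libraries 0 of 40 members passed between labelled KO cerulein and labelled KO saline by edgeR, against a background of 0% of tested genes in either direction. At an unadjusted p under 0.05 there were 4 members and 3256 genes, and DESeq2 called 1 member (Sec24b, higher), with 1239 genes higher and 120 lower. Without C3, 5 members rose (Sec61a1, Sec24a, Sec24b, Sec24d and Kdelr3) and 2 fell (Sec62 and Ssr1), 12.5% and 5%, against a background of 18.7% higher and 10.5% lower. With C3 in the fit the changes of these 7 were 0.37 for Sec61a1, 0.66 for Sec24a, 0.60 for Sec24b, 0.75 for Sec24d, 0.88 for Kdelr3, -0.45 for Sec62 and -0.33 for Ssr1 (log2), the same direction in each, with adjusted p between 0.113 and 0.429. Those of Sec16a and Lman1 were then -0.31 and -0.37 (adjusted p 0.367 and 0.281). All 7 are among the 13 members that passed in WT without C3. The sign was the same in WT and the labelled KO for 38 of 40 members without C3. The share of all tested genes with the same sign was not counted, so this is not a trait of the members. Groups that do not overlap were seen for 7 members on the higher side and 12 on the lower without C3, against 29.3% and 23.7% of tested genes; with C3 the counts were 2 and 1, against 9.41% and 6.35%.

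**Figure D4:**
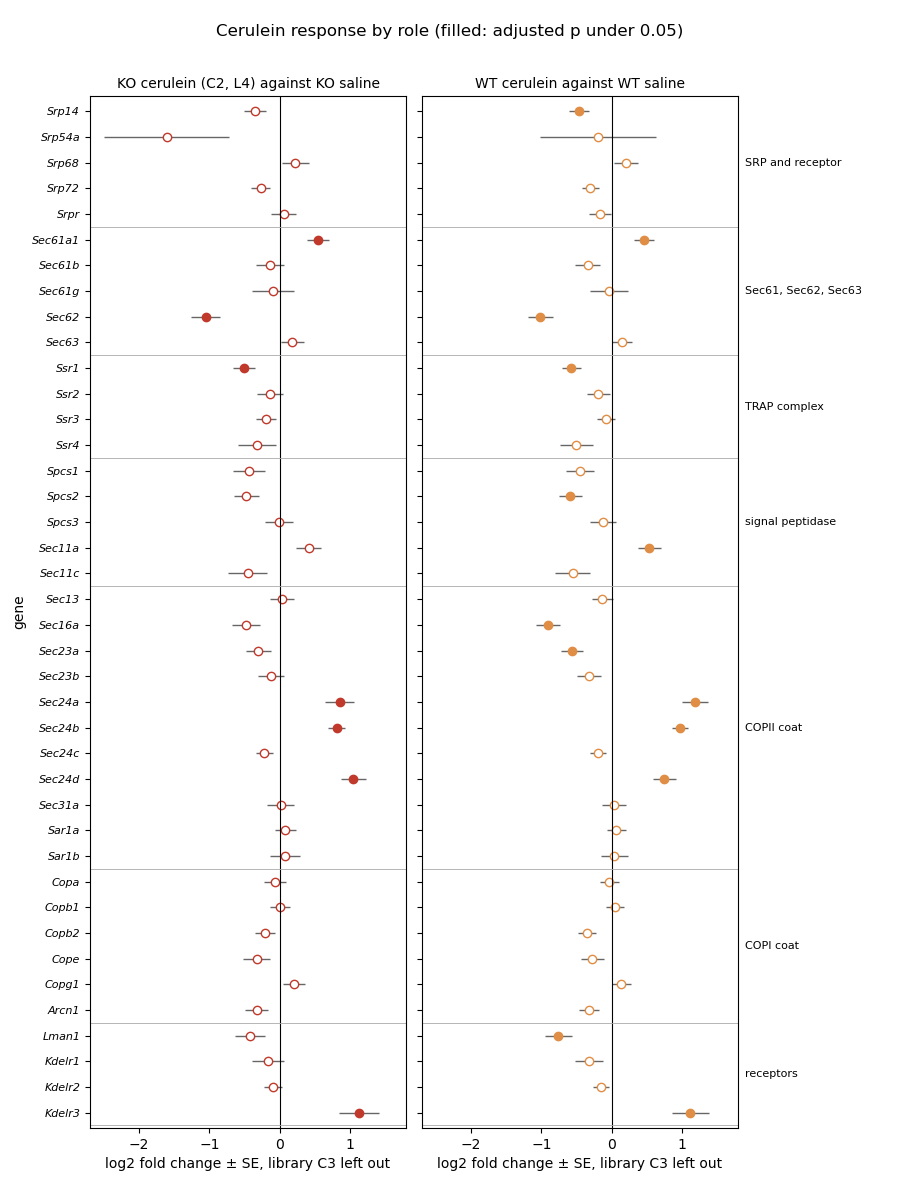
Log2 fold change ± SE of the 40 members by role, with C3 left out of the fit: labelled KO cerulein (C2 and L4) against labelled KO saline on the left, WT cerulein against WT saline on the right; filled points have an adjusted p under 0.05. The filled points of the left panel are filled on the right too, and all COPI points are open.

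No member passed in the comparisons of genotype labels, and with groups of 3 this does not show that the labels were alike. Labelled KO against WT in saline gave 0 of 40 by edgeR, DESeq2 and limma-voom, with 0 members and 60 genes at an unadjusted p under 0.05 and a background of 0% of tested genes. Srp54a had the largest change in that comparison, 1.45 ± 0.77 (adjusted p 1), with 2.595, 0.134 and 0.834 CPM in S1, K4 and Q1 of labelled KO saline and 0.453, 0.462 and 0.394 CPM in W1, K5 and R3 of WT saline. Its change in the difference of the cerulein responses was -1.43 ± 1.1 (adjusted p 0.813). Leaving out Srp54a, the member log2 fold changes of labelled KO against WT in saline lay between -0.18 and 0.19. Labelled KO against WT in cerulein also gave 0 of 40 (background 0%, 1 member at an unadjusted p under 0.05, 1146 genes), and so did the difference of the 2 cerulein responses (background 0%, 0 members at an unadjusted p under 0.05, 594 genes). Without C3 both again gave 0 of 40 (background 0%), with 1 member and 747 genes at an unadjusted p under 0.05 for labelled KO against WT in cerulein and 0 members and 508 genes for the difference of the responses. DESeq2 and limma-voom, run with C3 included, called 0 members in both. Over all tested genes DESeq2 called 7 higher and 4 lower for labelled KO against WT in cerulein. For the difference of the responses it called 1 higher and 0 lower, and limma-voom called 0 genes in both. Of the 11 members that passed in WT, 9 had a smaller absolute change in the labelled KO without C3. The 11 were chosen by their WT values, which favours that side, so this count does not compare the labels. Among the 11, the largest difference of the responses was that of Sec16a, 0.43 ± 0.26 without C3 (log2, ± SE, edgeR adjusted p 0.999). With C3 it was 0.60 ± 0.29 (edgeR adjusted p 0.812), so a difference of that size is not separated from the spread here.

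Members that hold the promoter letters were found in both directions. Among the 5 genes with the UPRE letters, Kdelr3 and Sec24d rose in WT without C3, Sec23a fell, and Copb1 and Copb2 did not pass. Their log2 changes lay between -0.56 and 1.12. Of the 6 members that rose, 5 have a promoter in the table and 4 of these hold the core. Of the 7 that fell, 6 have a promoter and 5 hold the core, and of the 27 that did not pass, 21 have one and 13 hold the core. The only entries for Spcs2, Sec24a and Srpr start 4579, 6800 and 11028 bases inside the gene models used for symbols and coordinates, and that for Sec24b 646 bases, so those windows are not at the 5′ ends of these models.

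**Figure D5:**
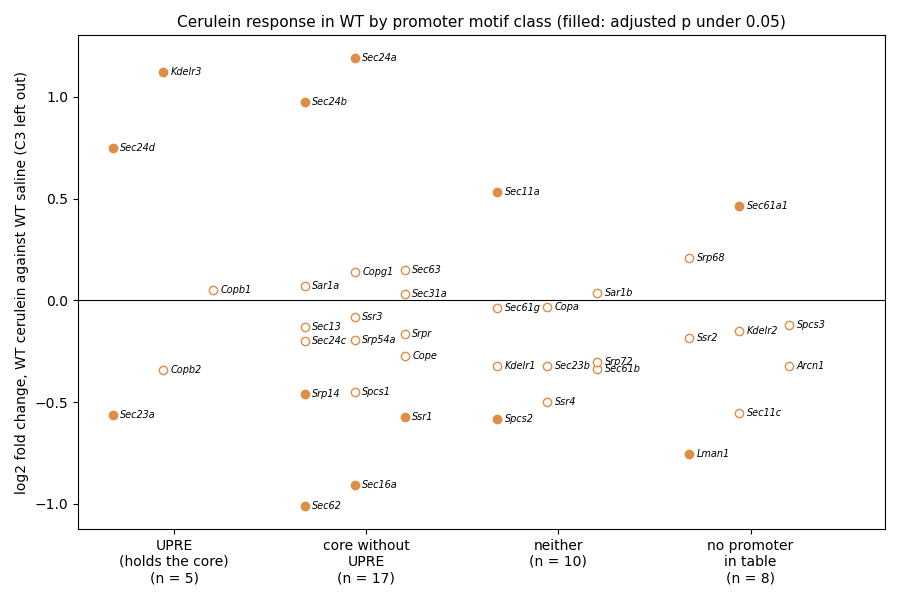
Log2 fold change in WT, cerulein against saline, without C3, for the 40 members by promoter letters (UPRE, core without UPRE, neither, no promoter in the table); filled points have an adjusted p under 0.05. Points lie on both sides of 0 in each column, from -0.56 to 1.12 in the UPRE column and from -1.01 to 1.19 in the core column.

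Around the members, 115 other genes of the same pathways in 6 lists were tested, and in WT 5 rose and 23 fell, 4.35% and 20% of them, against 17.9% and 12.8% of all tested genes. Their median log2 fold change in WT was -0.24. In the labelled KO 0 passed with C3, and without it 8 rose and 22 fell. These are 6.96% and 19.1%, against 18.7% of all tested genes higher and 10.5% lower. Among targeting and translocation factors 0 of 24 rose and 4 fell in WT (16.7%, against 12.8% of all tested genes lower). Tram1, which lies beside the channel and helps signal peptides enter it, had 49.6 and 60.1 CPM in C2 and L4 with 98.99 CPM in C3, and 52.3, 41.9 and 42.1 CPM in the WT cerulein libraries, compared with 117, 109 and 122 CPM in labelled KO saline and 124, 118 and 131 CPM in WT saline. It fell by 1.45 in WT (log2, SE 0.24, adjusted p 0.00918). Emc9, of the ER membrane protein complex that inserts membrane segments, fell by 1.69 in WT, and its complex partner Emc4 by 0.49. Srp9, which pairs with Srp14, fell by 0.55 (adjusted p 0.0453). Of 12 oligosaccharyltransferase genes, which attach sugar chains at the translocon, 0 rose and 0 fell in WT. Of these, the 2 with the highest level per length were Krtcap2, which changed by -0.50 ± 0.26 (adjusted p 0.164), and Rpn2, which changed by -0.21 ± 0.15 (adjusted p 0.339). Without C3, 2 of the 12 fell in WT, Magt1 (-0.77 ± 0.21, adjusted p 0.013) and Dad1 (-0.65 ± 0.22, adjusted p 0.0366). That share, 16.7%, is set against 16.6% of all tested genes lower.

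Of 26 genes of ER exit sites and COPII regulation, 3 rose and 6 fell in WT. These are 11.5% and 23.1%, against 17.9% of all tested genes higher and 12.8% lower. Pdcd6, the calcium-binding protein ALG-2 that binds Sec31a at ER exit sites, had 67.2 and 43.3 CPM in C2 and L4, 14.9 CPM in C3 and 50.1, 63.1 and 36.2 CPM in WT cerulein, against 14.7, 13.3 and 13.3 CPM in labelled KO saline and 17.7, 11.2 and 14.5 CPM in WT saline. It rose by 1.78 ± 0.44 in WT (adjusted p 0.014). Cnih4, a cornichon cargo receptor, rose by 1.62 ± 0.33 in WT (adjusted p 0.00926). Sec31b, the paralog of Sec31a, fell by 1.12 and Yipf5, a Golgi membrane protein, by 1.0. Of 19 further COPI, Arf and retrograde genes, 0 rose and 4 fell (21.05%). Rint1 and Zw10, which with Nbas tether retrograde vesicles at the ER, fell by 1.5 and 0.74, and the coat subunits Copg2 and Copz1 by 0.89 and 0.60. Copg2 had 4.91 and 5.16 CPM in C2 and L4 with 10.6 CPM in C3, and 5.304, 4.45 and 4.78 CPM in the WT cerulein libraries, compared with 9.29, 8.77 and 10.2 CPM in labelled KO saline and 9.64, 9.25 and 8.11 CPM in WT saline, so this minor gamma subunit fell where Copg1 did not pass. Of 24 ER-Golgi tethers and SNAREs, 0 rose and 7 fell (29.2%). The largest changes were those of Golgb1 (-1.13), Sec22c (-1.13), Gorasp2 (-1.0) and Golga2 (-0.96). Among these, Golgb1, Gorasp2 and Golga2 encode Golgi matrix proteins.

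Of 10 transcriptional regulators of secretory capacity, 2 rose and 2 fell in WT (20% each, against 17.9% of all tested genes higher and 12.8% lower). Ern1, the ER stress sensor IRE1 alpha, rose by 1.14 ± 0.31 in WT (adjusted p 0.0202) and Atf4, an effector of the integrated stress response, by 1.87 ± 0.41 (adjusted p 0.011). Bhlha15 (Mist1), which sustains the secretory apparatus of acinar cells, fell by 1.65 in WT (adjusted p 0.0147), and Creb3 by 1.01 (adjusted p 0.0166). Xbp1, whose spliced form binds the UPRE and which is named for that link after its values were seen, had 358 and 263 CPM in C2 and L4, 618 CPM in C3 and 339, 321 and 239.6 CPM in WT cerulein, against 425, 416 and 451 CPM in labelled KO saline and 595, 409 and 538 CPM in WT saline. The total Xbp1 level changed by -0.78 ± 0.30 in WT (adjusted p 0.068; 0.0111 without C3); gene counts do not separate its spliced form.

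Markers of cell types moved with treatment too, and their part in the results above was not tested. The 10 acinar markers, all detected in every library, summed to 288543 to 365271 CPM in WT cerulein and 431962 to 506975 CPM in WT saline, and 3 of them fell and 0 rose. The 8 duct markers, also all detected, summed to 281.1 to 466.7 CPM in WT cerulein and 199 to 273 CPM in WT saline, with 4 higher and 1 lower. Under the Atf3-/- label the acinar sums were 349682 and 300866 CPM in C2 and L4, 469920 CPM in C3 and 391654 to 580560 CPM in saline. The duct sums there were 367 and 301 CPM in C2 and L4, 276 CPM in C3 and 193 to 244 CPM in saline; without C3, 2 acinar markers fell and 5 duct markers rose. The 8 islet markers summed to 11496 CPM in L4, against 462 to 3595 CPM in the other 11 libraries, with 0 past the threshold in the labelled KO with C3 and 4 of 8 higher without it. Beside these marker counts, 17.9% of all tested genes were higher and 12.8% lower in WT. In the labelled KO without C3 the shares were 18.7% and 10.5%. L4 is 1 of the 2 libraries behind every labelled KO call made without C3. In the labelled KO saline library K4 the fat markers summed to 566 CPM, the 7 macrophage markers to 383 CPM and the lymphocyte markers to 134 CPM, against 88.6 to 167, 83.2 to 220 and 6.02 to 37.2 CPM in S1 and Q1. N3 had the lowest WT cerulein value for 33 of the 40 members, and its share over all tested genes was not counted. In N3 the 8 fat markers summed to 449.6 CPM and the 8 lymphocyte markers to 269.9 CPM, against 42.6 to 44.9 and 4.02 to 15.5 CPM in O1 and O3, where 4 fat and 3 lymphocyte markers were at 0 in O3. With N3 left out, 7 of the 11 WT calls held, those of Srp14, Sec62, Ssr1 and Spcs2 not. Only Sec24a and Sec24b passed in WT whichever 1 of the 12 libraries was left out.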

How the data were processed

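The deposited values are whole-number counts per Ensembl gene for 12 libraries of whole pancreas, not normalized, from an Illumina TruSeq stranded kit for total RNA, per the labels' protocols. HTSeq, DESeq2 and mm10 are named in the submitters' processing notes without versions or roles; for the aligner, annotation release and strand setting these sources give nothing. GENCODE M21 (GRCm38) gave symbols and coordinates for 49326 of 49585 identifiers. The series' design gives 3 animals per group, and each library is taken as 1 animal.

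After filterByExpr (14329 genes kept) and TMM scaling, edgeR 4.0.16 in R 4.3.3 fitted all 4 group means together by robust quasi-likelihood. Two-sided p-values were adjusted by Benjamini-Hochberg across every tested gene and called under 0.05. Standard errors were derived as log2 fold change over the root of F. The fit was also run on simulated counts with less spread than these data, larger changes than those of the members in WT and no library like C3. That run therefore does not show how well changes of the sizes seen here are recovered. DESeq2 1.42.0 and limma 3.58.1 were alternatives, besides 2 other scalings, 2 other filters, fits of only the groups compared and leaving out each library. Paralog ratios used counts plus 1 and exact permutation. CPM per kb divides by the union of exon lengths. Python 3.11.15, pandas 2.3.3, SciPy 1.17.1 and matplotlib 3.10.9 made tables and figures.

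The members and all gene and marker lists were chosen with earlier results of these data known, so no list's direction is independent support. By rule, values in every library are given for members past the threshold with an absolute log2 fold change of at least 1 and for the 2 most abundant per length of each role, and up to 4 genes past the threshold are named from each pathway list. Outside the rule, and after their values were seen, Xbp1, Sec16b, Magt1 and Dad1 were named and library values of further members that passed, of their paralogs and of some pathway genes were added. Of 25 listed targeting factors, Srp54b was not matched.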

Additional observations from a re-analysis of the deposited data

How the results depend on the processing

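All 11 members past the threshold in WT kept their direction under 7 other settings and with each of the 12 libraries left out. Sec24a and Sec24b stayed past the threshold in every one of these; Sec16a did so in 7 of 7 settings and 11 of 12 leave-outs, Lman1 in 7 and 9, Kdelr3 in 7 and 8, Sec23a in 6 and 8, Ssr1, Spcs2 and Sec11a in 6 and 5, Srp14 in 5 and 5 and Sec62 in 5 and 3. With no filter on low counts 25628 genes were tested, of which 1058 fell in WT, 2 members among them. With 1 library left out, 2 to 6 members rose and 0 to 7 fell in WT, and 0 to 5 rose and 0 to 2 fell in the labelled KO, where every call came with C3 left out. Over all tested genes, 1270 to 3133 rose and 571 to 2450 fell in WT, fewest without O3 and most without C3. In the labelled KO 2756 genes rose and 1550 fell without C3, of 14733 tested. DESeq2 called 1 member higher in the labelled KO. Copb2 passed in WT, lower, under the stricter filter and in the fit of the WT libraries alone. Of the log2 ratios, with 1 library left out, Sec24c to Sec24b ranged from -1.10 to -0.79, Sec11c to Sec11a from -0.97 to -0.73, Kdelr3 to Kdelr1 from 0.95 to 1.34, Sec23b to Sec23a from 0.14 to 0.25, Sec24d to Sec24a from -0.31 to -0.12, Sar1b to Sar1a from -0.035 to 0.13 and Kdelr2 to Kdelr1 from -0.053 to 0.17. Among these settings the first 3 missed the threshold only without L4, and Sec23b to Sec23a passed only without Q1. The causes of these moves were not tested.

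The genotype-label comparisons and the interaction called 0 members under every setting run. No paired analysis was possible because the groups have no animal code in common. Groups of 3 and the spread with C3 limit what can pass, and Srp54a, with few counts, is the least precise member.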

Other observations

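Minor paralogs of ER exit site genes were also measured. Sec16b, the smaller paralog of the scaffold gene Sec16a, had 4.57 and 13.5 CPM in C2 and L4, 1.83 CPM in C3 and 13.5, 9.87 and 7.36 CPM in WT cerulein, against 1.84, 2.49 and 4.53 CPM in labelled KO saline and 2.199, 5.03 and 2.68 CPM in WT saline. Without C3 it rose in WT by 1.63 ± 0.49 (log2, ± SE, edgeR adjusted p 0.0247) and in the labelled KO by 1.64 ± 0.53 (adjusted p 0.0421); over 12 libraries its WT change of 1.63 ± 0.63 had an adjusted p of 0.0727, and its labelled KO change of 1.19 ± 0.63 one of 0.273. Sec31b, the paralog of the outer-coat gene Sec31a, had 2.23 and 1.77 CPM in C2 and L4 with 4.27 CPM in C3, and 2.54, 2.08 and 2.51 CPM in the WT cerulein libraries, compared with 3.39, 4.81 and 6.14 CPM in labelled KO saline and 5.17, 6.06 and 4.29 CPM in WT saline. Its change in the labelled KO was -0.80 ± 0.33 with C3 (adjusted p 0.189) and -1.25 ± 0.28 without it (adjusted p 0.00771). Sec16a, by contrast, fell in WT, and Sec31a did not pass. These 4 genes were set side by side after their values were seen, and the pairs were not tested as ratios.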
